A study of Mus musculus with 27 samples.

Results

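The proteasome subunit genes were taken as every gene on the array whose symbol is Psma, Psmb, Psmc, Psmd, Psme or Psmg followed by a number, without the immunoproteasome genes Psmb8, Psmb9 and Psmb10 and without pseudogenes. They came to 44 of 19057 named genes: 16 core subunits, 17 cap subunits, 3 chaperones that assemble the cap, 4 chaperones that assemble the core and 4 activators. The arrays held total RNA of liver, brain and bone marrow of C57BL/6 mice, and the 9 groups had 3 arrays each, 27 in all. In each tissue the genotypes were homozygous for the allele Mysm1tm1a(KOMP)WTSI (spelled Mysm1tma1/tm1a in the labels), heterozygous (Mysm1+/tm1a) and wild type. Animal age and sex were not given in the sources used here, and the design text sets animals against each other, so each array is treated here as 1 animal.

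The proteasome degrades proteins tagged with ubiquitin. Its barrel-shaped core is built of rings of α and β subunits, with the protein-cutting sites on Psmb5, Psmb6 and Psmb7, and its cap recognises, unfolds and feeds in the substrate. In place of the cap, activators can open the core: Psme1 and Psme2 form an interferon-inducible activator, Psme3 forms a nuclear one, and Psme4 encodes the large activator PA200. Mysm1 removes ubiquitin from histone H2A and belongs to the same family of metal-dependent deubiquitinases as the cap lid subunit Psmd14.

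The RefSeq promoter table (build GRCm38.p6) held a start for 36 of the 44 genes. The 250 bases before the start are printed for 8 of them: the 4 activators, on which the tissue comparisons turn, and the cap genes Psmd8, Psmd9, Psmd11 and Psmd14, on which the genotype comparisons turn. They run 5′ to 3′ in the direction of the gene, and a gene with several starts is shown at the first listed. Capitals mark every match, on either strand, to 4 motifs: CCGGAAG (an ETS-type motif), CCAAT, TGACNNNGC (the antioxidant response element core, which Nfe2l1 and its relatives bind) and an interferon response-type motif (GAAA, any 2 bases, GAAA).
Psme1, chr14:55578244-55578493, plus strand: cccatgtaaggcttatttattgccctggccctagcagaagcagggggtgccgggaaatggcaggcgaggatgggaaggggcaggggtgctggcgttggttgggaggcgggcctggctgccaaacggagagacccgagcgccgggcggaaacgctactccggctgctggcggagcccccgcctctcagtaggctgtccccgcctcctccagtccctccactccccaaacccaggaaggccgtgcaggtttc
Psme2, chr14:55591102-55591351, minus strand: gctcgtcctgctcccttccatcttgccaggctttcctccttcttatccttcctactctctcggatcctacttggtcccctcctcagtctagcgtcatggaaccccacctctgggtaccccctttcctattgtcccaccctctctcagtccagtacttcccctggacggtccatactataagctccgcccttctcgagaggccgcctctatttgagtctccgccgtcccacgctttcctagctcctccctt
Psme3, chr11:101315963-101316212, plus strand: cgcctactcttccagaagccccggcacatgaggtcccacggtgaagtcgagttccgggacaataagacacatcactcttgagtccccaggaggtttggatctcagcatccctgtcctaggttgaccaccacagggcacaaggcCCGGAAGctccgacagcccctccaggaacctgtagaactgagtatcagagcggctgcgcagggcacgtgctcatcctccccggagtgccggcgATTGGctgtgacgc
Psme4, chr11:30771525-30771774, plus strand: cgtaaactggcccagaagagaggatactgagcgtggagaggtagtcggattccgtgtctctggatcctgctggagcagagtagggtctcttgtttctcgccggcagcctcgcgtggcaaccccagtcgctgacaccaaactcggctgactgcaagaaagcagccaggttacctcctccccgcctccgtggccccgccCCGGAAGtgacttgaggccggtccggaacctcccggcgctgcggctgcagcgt
Psmd8, chr7:29180674-29180923, minus strand: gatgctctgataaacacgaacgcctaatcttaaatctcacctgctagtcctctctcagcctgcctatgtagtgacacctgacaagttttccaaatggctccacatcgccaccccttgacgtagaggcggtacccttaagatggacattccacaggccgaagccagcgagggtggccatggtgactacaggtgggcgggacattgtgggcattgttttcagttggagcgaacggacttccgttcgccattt
Psmd9, chr5:123227940-123228189, plus strand: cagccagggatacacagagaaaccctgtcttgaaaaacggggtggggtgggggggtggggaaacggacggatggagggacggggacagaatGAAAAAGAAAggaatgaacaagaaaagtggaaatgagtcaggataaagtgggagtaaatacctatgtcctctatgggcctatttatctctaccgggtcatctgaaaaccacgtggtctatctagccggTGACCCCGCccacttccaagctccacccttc
Psmd11, chr11:80428365-80428614, plus strand: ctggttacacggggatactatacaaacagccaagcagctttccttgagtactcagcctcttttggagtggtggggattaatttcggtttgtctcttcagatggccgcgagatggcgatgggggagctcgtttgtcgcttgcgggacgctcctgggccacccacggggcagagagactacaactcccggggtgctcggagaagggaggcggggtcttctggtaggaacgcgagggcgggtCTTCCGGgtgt
Psmd14, chr2:61711444-61711693, plus strand: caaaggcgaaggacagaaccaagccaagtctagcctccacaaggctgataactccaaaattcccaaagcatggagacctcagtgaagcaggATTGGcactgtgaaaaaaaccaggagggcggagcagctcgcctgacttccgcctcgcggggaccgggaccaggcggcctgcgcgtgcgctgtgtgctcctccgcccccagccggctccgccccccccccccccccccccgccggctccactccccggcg
The ETS-type motif was present in 33.3% of the 39 listed promoters of the proteasome genes, against 6.91% of all 32851 promoters of this length. CCAAT was present in 33.3% and 33.8%, TGACNNNGC in 12.8% and 10.2%, and the interferon response-type motif in 7.69% and 2.98%. Among the 8 printed promoters, Psme3, Psme4 and Psmd11 held the ETS-type motif, Psme3 and Psmd14 held CCAAT, and Psmd9 held both TGACNNNGC and the interferon response-type motif. The windows of Psme1, Psme2 and Psmd8 held none of the 4. A match is a description of letters, and binding was not measured.

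The 44 genes had 77 probes. A gene was represented by its probe with the highest mean, provided that the probe was detected (detection p under 0.05) on at least 3 arrays of the fit: 37 genes passed in liver, 36 in brain, 36 in bone marrow and 37 over all 27 arrays, and 35 passed in every tissue. Psma1, Psma3, Psma6, Psmb11, Psmd3 and Psmg4 were detected on 0 of 27 arrays, and Psmc6 on 1. Psmb11 is the thymus form of Psmb5, while Psma1, Psma3, Psma6, Psmc6 and Psmd3 encode standard subunits that cells need, so their probes gave no information on level here. The testis form Psma8 did not pass in brain, and Psmd2 did not pass in bone marrow.

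The targeted gene followed the labels in liver and brain but not in bone marrow. In liver, Mysm1 had log2 intensities of 5.20, 4.49 and 4.72 on homozygous arrays, 6.48, 6.64 and 6.54 on heterozygous arrays, and 7.57, 7.59 and 7.29 on wild-type arrays. In brain, Mysm1 had 6.41, 6.37 and 6.47 on homozygous arrays, 7.74, 7.53 and 7.78 on heterozygous arrays, and 8.28, 8.43 and 8.34 on wild-type arrays. In bone marrow, Mysm1 had 6.48, 4.88 and 6.95 on the arrays labelled homozygous, 6.35, 6.08 and 6.35 on heterozygous arrays, and 6.18, 6.29 and 6.40 on wild-type arrays. Only array 2 of the arrays labelled homozygous was lower than the other marrow arrays. That array also carried liver transcripts: Apoa1 stood at 11.99, Apoa2 at 12.83 and Cyp2e1 at 11.14. On it 4 of 8 liver markers were detected, against 0 on arrays 1 and 3. Of 7 brain markers 5 were detected on it, against 3 and 1 on arrays 1 and 3. Syt1 stood at 7.45, Mbp at 8.98 and Gria2 at 7.01, against wild-type marrow means of 4.36, 6.56 and 4.87. Gfap went the other way, at 4.88 against 7.06. The bone marrow homozygous group is therefore called by its label below, and its main results are given with and without array 2. Mean raw intensity ran from 282 to 373 over the liver and brain arrays and from 92.1 to 228 over the marrow arrays. Marker genes of the labelled tissue were detected on every array, although the probes of Fabp1, Fgb, Tat and Snap25 were not detected in their own tissue and that of Alb was detected on 1 liver array. In whole tissue, fewer cells of a type and less RNA per cell cannot be told apart.

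Among wild-type tissues, 3 of the 4 activators stood higher in liver than in brain, while the catalytic core genes Psmb5 and Psmb6 did not pass in any comparison. These were Psme1, Psme2 and Psme4. All 4 activator genes were higher in bone marrow than in brain after quantile normalization. After median scaling none of them passed as higher, and Psme2 and Psme4 turned negative. The median of all genes was then more negative than either (values below). These values come from all 27 arrays normalized together, and 37 genes were tested in a fit of 17374 features. Here and below, the features of a fit are called all genes, although they include detected probes without a single gene symbol.

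Psme4 (PA200) had log2 intensities of 10.27, 10.11 and 10.16 in wild-type liver, against 8.19, 8.27 and 8.34 in wild-type brain. The difference was 1.91 ± 0.18 (log2, SE, n = 3 each; limma, adjusted p = 3.59e-09), and the arrays of the tissues did not overlap. Psme1 had 10.95, 11.26 and 11.04 in liver, against 9.50, 9.32 and 9.24 in brain, a difference of 1.73 ± 0.16 (limma, adjusted p = 4.40e-09). Its partner Psme2 had 8.07, 8.41 and 8.30 in liver, against 6.57, 6.76 and 6.64 in brain, a difference of 1.604 ± 0.26 (limma, adjusted p = 1.50e-05). As linear ratios of liver over brain these are 3.76 for Psme4, 3.32 for Psme1 and 3.04 for Psme2, and after scaling arrays to equal medians the log2 differences were 1.47, 1.46 and 0.90, all past the test. A second probe of Psme1 gave 1.74 ± 0.21 and a second, dimmer probe of Psme4 gave 0.84 ± 0.28. Psme3 differed from this pattern: it had 9.89, 9.65 and 9.54 in liver, against 9.95, 9.88 and 9.94 in brain, with -0.23 ± 0.20 between them (limma, adjusted p = 0.38), which is not past the threshold.

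In bone marrow, Psme3 stood well above both other tissues. It had 12.14, 12.19 and 11.86 in wild-type marrow, against 9.89, 9.65 and 9.54 in wild-type liver, a difference of 2.37 ± 0.20 (limma, adjusted p = 9.62e-10). Against brain the difference of Psme3 was 2.14 ± 0.20 (limma, adjusted p = 3.92e-09). The marrow arrays of Psme3 lay above every liver and brain array. Psme1 was at 11.56, 11.65 and 11.58 in marrow, higher than brain by 2.25 ± 0.16, Psme4 was higher than brain by 1.86 ± 0.18, and Psme2 by 1.17 ± 0.26 (limma, adjusted p from 5.02e-11 to 0.000499). With arrays scaled to equal medians in place of quantile normalization, the median of all genes moved to -0.80 for marrow against brain and -0.17 for marrow against liver. Psme3 was then at 0.57 against brain and 1.20 against liver, Psme1 at 0.48 and -0.98, Psme4 at -0.05 and -1.51, and Psme2 at -0.62 and -1.53, so of the activators only Psme3 was positive against both tissues, and only against liver did it pass the test. A second probe of Psme1 gave -0.50 ± 0.21 for marrow against liver, opposite to the 0.52 ± 0.16 of the probe used.

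**Figure D1:**
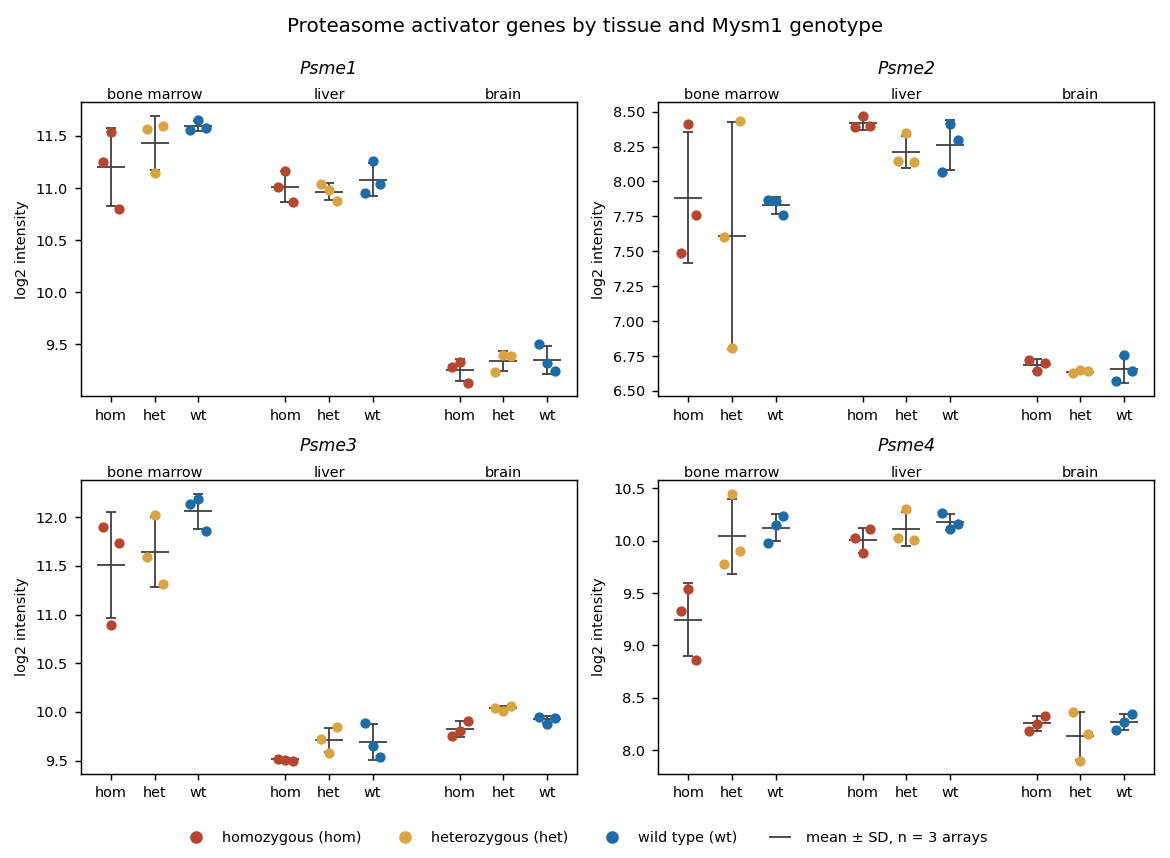
Log2 intensity of the 4 activator genes on each array, with all 27 arrays normalized together. The horizontal axis gives tissue and Mysm1 genotype, points are arrays, and bars are the mean ± SD of 3 arrays. Wild-type brain lies lowest for Psme1, Psme2 and Psme4 and marrow highest for Psme3. Median scaling put Psme2 and Psme4 in marrow at -0.62 and -0.05 against brain, with the median of all genes lower than both.

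The immunoproteasome genes, which are not counted among the 44, included Psmb8 and Psmb9 that were also lower in brain than in both other tissues. Psmb9 was higher in wild-type liver than in brain by 3.40 ± 0.26 and Psmb8 by 3.38 ± 0.24, and higher in marrow than in brain by 4.83 ± 0.26 and 3.66 ± 0.24 (limma, adjusted p from 4.13e-13 to 1.91e-10). Psmb10 was higher in marrow than in brain by 0.99 ± 0.25 (limma, adjusted p = 0.00170), and its liver difference of 0.41 ± 0.25 against brain did not pass (limma, adjusted p = 0.19).

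Of 12 core genes tested, 2 passed in liver against brain (16.7%, against 49.6% of all genes), 4 in marrow against liver (33.3%, against 46.8%) and 5 in marrow against brain (41.7%, against 56.6%). Psmb1, a non-catalytic β subunit, had 7.70, 7.50 and 8.70 in wild-type marrow, against 10.57, 10.62 and 10.90 in liver, a difference of -2.73 ± 0.28 (limma, adjusted p = 2.67e-08), and -2.52 ± 0.28 against brain (limma, adjusted p = 7.30e-08). It was lower in marrow under each alternative tried for these comparisons, from -4.19 to -1.33. The catalytic subunit genes Psmb5 and Psmb6 passed in none of the tissue comparisons: Psmb5 had 7.69, 7.96 and 8.14 in liver, against 7.50, 7.69 and 7.64 in brain, and Psmb6 had 10.85, 10.89 and 11 in liver, against 10.66, 10.60 and 10.68 in brain. The third catalytic gene, Psmb7, was lower in marrow than in brain by 0.87 with the probe used (log2 difference -0.87 ± 0.23, limma, adjusted p = 0.00302). Its 3 other probes gave 0.03 ± 0.19, 0.09 ± 0.19 and 0.30 ± 0.18, and with the mean over probes the difference was -0.11 (limma, adjusted p = 0.63).

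Among cap and chaperone genes, some lid and assembly genes passed as higher in liver than in brain, where 49.6% of all genes passed in either direction. Passing members higher in liver were the lid genes Psmd6, Psmd11 and Psmd12, the cap chaperone Psmd9, the core chaperones Psmg1 and Psmg3, and the core gene Psma4. The lid genes Psmd7, Psmd8, Psmd13 and Psmd14 and the chaperones Psmd5, Psmd10 and Psmg2 did not pass. Psmd6 was detected on 2 of 3 wild-type arrays in each of these tissues. Most of these higher calls were lost under median scaling (counts below). Psmc5, an ATPase of the cap base, and Psmd1, a scaffold of the base, were lower in liver than in brain, by -0.45 ± 0.16 and -0.45 ± 0.15 (limma, adjusted p = 0.0249 and 0.0157), and Psma2 was lower too. Psmc5 no longer passed without wild-type liver array 2 or 3 or wild-type brain array 1 or 2 (limma, adjusted p from 0.0573 to 0.0888). Psmd1 no longer passed without wild-type liver array 3 or wild-type brain array 1 (limma, adjusted p = 0.0649 and 0.0973), and its mean over probes gave 0.00. In marrow, the cap chaperone Psmd10 and the core chaperone Psmg2 were higher than in liver, by 1.10 ± 0.14 and 1.12 ± 0.18 (limma, adjusted p = 9.35e-07 and 1.47e-05), but median scaling gave -0.11 and 0.06. Psmd2, the other scaffold of the cap base, was lower in marrow than in liver by -0.70 ± 0.22 (limma, adjusted p = 0.0116) and was detected on 1 of 3 wild-type marrow arrays. Its other probe gave -0.18 ± 0.21, and the call was lost without wild-type liver array 3 or wild-type marrow array 1 or 3 (limma, adjusted p = 0.0566, 0.0645 and 0.0790).

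Counted over all members, 13 of 37 passed in liver against brain (10 higher, 3 lower), where 49.6% of all genes passed. In marrow against liver 11 of 37 passed (9 higher, 2 lower), against 46.8% of all genes, and in marrow against brain 23 of 37 (18 higher, 5 lower), against 56.6%. The median absolute difference of the members was 0.30, 0.38 and 0.63 (log2) in these comparisons, against 0.60, 0.61 and 0.79 over all genes. Leaving out wild-type liver array 3 or wild-type brain array 1 gave 8 calls for liver against brain, and leaving out any other single array gave 9. Median scaling, which moved the median of all genes to -0.33 for liver against brain, gave 5 higher and 1 lower for liver against brain, 1 higher and 21 lower for marrow against liver, and 0 higher and 21 lower for marrow against brain. Each wild-type tissue was on its own BeadChip, so tissue and BeadChip cannot be told apart there, but homozygous liver and wild-type brain shared 1 BeadChip. On it Psme1, Psme2 and Psme4 differed by 1.66, 1.76 and 1.74.

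**Figure D2:**
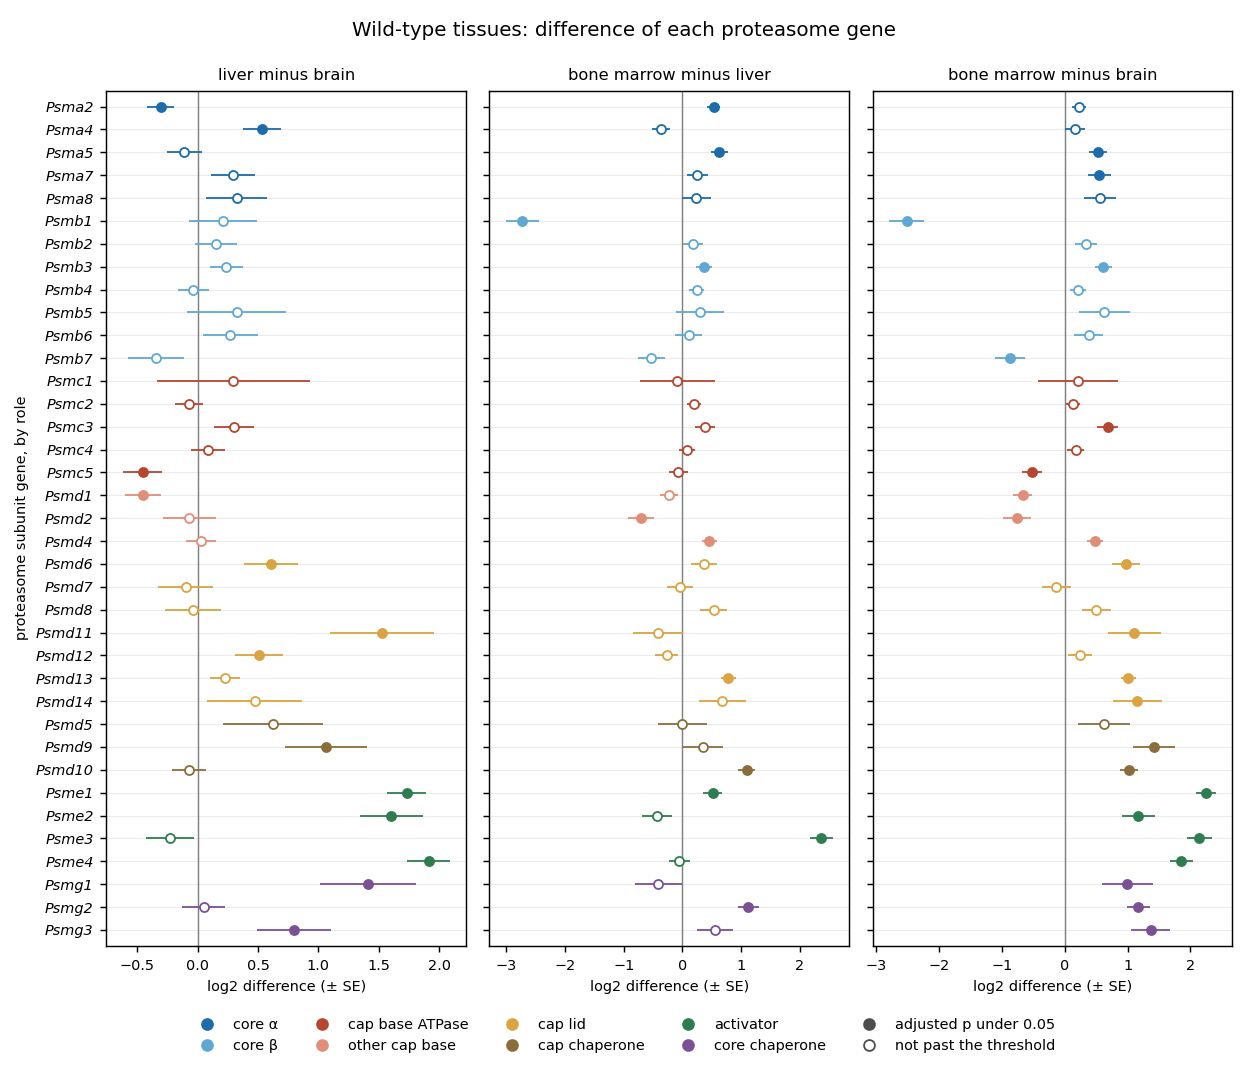
Log2 difference (± SE) of each of the 37 tested proteasome genes between wild-type tissues, coloured by role, from the fit over all 27 arrays. Filled points passed an adjusted p of 0.05. The 3 points farthest to the right are Psme4, Psme1 and Psme2 in liver against brain, and Psme1, Psme3 and Psme4 in marrow against brain. Under median scaling none of the latter passed as higher, and Psme4 turned negative, with the median of all genes lower still. Psmb1 lies farthest to the left in both marrow comparisons.

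In liver, no proteasome gene passed the test between homozygous and wild-type animals, and the members as a group lay slightly above zero. Of 37 members 0 passed, where 1.42% of all 11745 genes did. At an unadjusted p under 0.05 there were 7 (18.9%, against 17.3% of all genes). The median difference was 0.09 (log2), against 0.00 over all genes, and 28 of 37 were positive. All 7 β core genes tested were positive, with differences from 0.04 to 0.37. These counts take 1 probe per gene: of 16 members with several tested probes, 10 had all probes in 1 direction. The arrays did not overlap for 10 members, with 8 higher in homozygous liver, where 11.5% of all genes were, and 2 lower, where 12.1% were.

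Psmd8, a cap lid subunit, came closest. It had log2 intensities of 9.46, 9.68 and 9.49 on homozygous arrays, 9.13, 9.26 and 9.24 on heterozygous arrays, and 8.87, 8.97 and 9.15 on wild-type arrays. The homozygous arrays lay above all others, and the difference from wild type was 0.55 ± 0.11 (log2, SE, n = 3 each; limma, adjusted p = 0.0501). Under 5 alternatives it did pass: the deposited normalized values (0.43, limma, adjusted p = 0.023), no background correction (0.49, 0.016), median scaling (0.66, 0.038), a stricter detection filter (0.55, 0.035) and array weights (0.53, 0.029).

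Psmd9, a chaperone of cap assembly, had 6.01, 5.95 and 5.99 on homozygous arrays, 5.84, 5.56 and 5.90 on heterozygous arrays, and 5.58, 5.63 and 5.60 on wild-type arrays. The homozygous arrays were again highest, and the difference from wild type was 0.38 ± 0.11 (limma, adjusted p = 0.12). The cap scaffold Psmd2 had 5.32, 5.99 and 5.84 on homozygous arrays, 5.54, 5.21 and 5.61 on heterozygous arrays, and 5.27, 4.91 and 5.34 on wild-type arrays. These overlapped, 2 of 3 wild-type arrays detected it, and the difference was 0.54 ± 0.19 (limma, adjusted p = 0.20). The core chaperone Psmg2 had 7.71, 7.63 and 7.50 on homozygous arrays, 7.49, 7.39 and 7.24 on heterozygous arrays, and 6.82, 7.40 and 7.33 on wild-type arrays, a difference of 0.43 ± 0.16 (limma, adjusted p = 0.21). Its other probes gave 0.45 ± 0.19 and 0.20 ± 0.13.

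With the probe used for each, the 3 catalytic genes were all higher on every homozygous than on every wild-type liver array, without passing the test. Psmb5 (chymotrypsin-like activity) had 8.23, 8.43 and 8.28 on homozygous arrays, against 7.68, 7.98 and 8.17 on wild-type arrays, a difference of 0.37 ± 0.16 (limma, adjusted p = 0.26). Psmb6 (caspase-like) had 11.60, 11.54 and 11.53, against 11.26, 11.31 and 11.42 in wild type, and Psmb7 (trypsin-like) had 11.40, 11.49 and 11.47, against 11.17, 11.26 and 11.34 in wild type. Their differences were 0.23 ± 0.10 and 0.19 ± 0.10 (limma, adjusted p = 0.26 and 0.36). Of the activators, Psme3 differed by -0.21 ± 0.13 and Psme4 by -0.20 ± 0.13, both with non-overlapping arrays, Psme1 by -0.07 ± 0.13 and Psme2 by 0.17 ± 0.12, and none passed. Psmd11 gave 0.11 ± 0.12 with the probe used and 0.62 ± 0.14 with a dimmer one.

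Homozygous and wild-type liver were hybridized on different BeadChips, which cannot be told apart from genotype within liver. In a fit over the 3 tissues with BeadChip as a term and 1 homozygous effect for all tissues, Psmd8 was at -0.02, Psmd9 at -0.48, Psmd2 at -0.26 and Psmg2 at -0.16. By the layout of the BeadChips, that effect rests on homozygous against heterozygous brain and on heterozygous against wild-type liver and marrow. Homozygous liver arrays do not inform it, so the part of BeadChip in the liver differences was not tested by that fit. Bone marrow markers were also higher on the homozygous liver arrays: their mean log2 intensity was 5.65 to 6.14 there, 5.13 to 5.50 on heterozygous and 5.10 to 5.41 on wild-type liver arrays, and all 4 measured markers were positive, with Alas2 at 1.55 past the test and S100a8 at 1.79. The part of these in the proteasome differences was not tested. Heterozygous and wild-type liver shared 1 BeadChip: 0 of 37 members passed (0% of all genes did), 0 had an unadjusted p under 0.05 (7.2% of all genes did), and the median was 0.02. Against heterozygous liver, homozygous liver had 0 of 37 members past the test (0.69% of all genes), 3 with an unadjusted p under 0.05 (13.4% of all genes), and a median of 0.06.

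In brain, no proteasome gene passed the test between genotypes, and the differences were small. Of 36 members 0 passed in homozygous against wild type, where 0.00693% of all 14423 genes did, and 0 had an unadjusted p under 0.05, where 5.25% of all genes did. The median was -0.02, the range was -0.15 to 0.30, and the median SE of a member was 0.09 (log2). Of 16 members with several tested probes, 6 had all probes in 1 direction. The smallest p belonged to Psmd9, which had 5.15, 5.63 and 5.22 on homozygous arrays, 4.92, 5.47 and 5.31 on heterozygous arrays, and 4.94, 5.27 and 4.89 on wild-type arrays. Its arrays overlapped, with a difference of 0.30 ± 0.18 (limma, adjusted p = 0.97). The ATPase gene Psmc2 had 12.28, 12.25 and 12.10 on homozygous arrays, 12.20, 12.32 and 12.29 on heterozygous arrays, and 12.35, 12.30 and 12.35 on wild-type arrays, a difference of -0.12 ± 0.08 (limma, adjusted p = 0.98). The cap chaperone Psmd5 differed by -0.15 ± 0.10 and Psmb7 by -0.11 ± 0.08. Psmc2 and Psmd5 were the 2 members whose homozygous arrays all lay below wild type, where 5.24% of all genes did.

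Homozygous and heterozygous brain shared 1 BeadChip and give the only comparison of these genotypes within a chip. Of 36 members 0 passed (0.00693% of all genes), 28 were negative, and the median was -0.06 against 0.00 over all genes. Psme3 had 10.39, 10.43 and 10.54 on homozygous arrays, against 10.65, 10.62 and 10.67 on heterozygous arrays, a difference of -0.19 ± 0.07 (limma, adjusted p = 0.81), and it was the only member with an unadjusted p under 0.05, as 6.18% of all genes had. In heterozygous brain, set against wild type, 0 of 36 members passed (0% of all genes), 2 had an unadjusted p under 0.05 (5.87% of all genes did), and the median was 0.03.

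**Figure D3:**
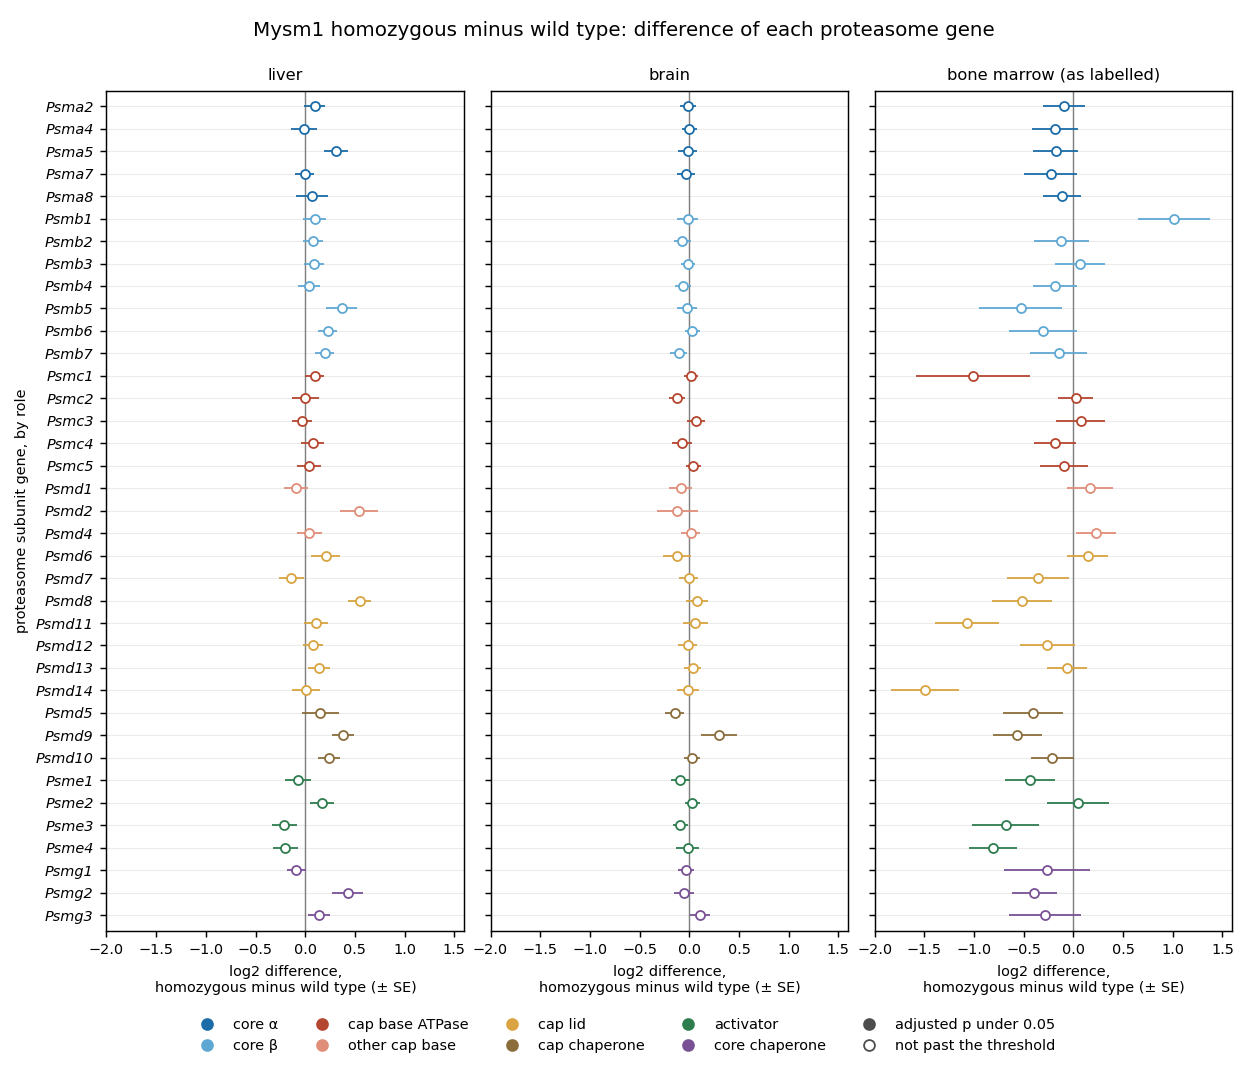
Log2 difference (± SE) of each proteasome gene between homozygous and wild-type animals in liver, brain and bone marrow, from fits within each tissue and coloured by role. All points are open because none passed an adjusted p of 0.05. Brain lies within 0.30 of zero, while marrow spans -1.49 to 1.01 with wider errors (the 1.01 of Psmb1 became -0.25 under median scaling).

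In bone marrow, no proteasome gene passed the test between the arrays labelled homozygous and wild type, and most differences were negative. In simulated data 0 of 100 genes changed by 1 (log2) were called in this comparison, so a count of 0 says little here. The count depended on the setting. Without array 2, 3 passed, as did 3620 of 11507 genes. There were 11 with array weights, 7 in 1 fit of all 27 arrays and 1 after median scaling. For the latter settings the share of all genes is not given here, so those counts cannot be set against it. Of 36 members 0 passed, where 1.10% of all 11507 genes did, and 5 had an unadjusted p under 0.05 (13.9%, against 27.1% of all genes). The median was -0.20, against -0.12 over all genes, and 28 of 36 were negative. Of 12 members with several tested probes, 9 had all probes in 1 direction. On 5 members the arrays labelled homozygous all lay below wild type and on 0 above, where 19.6% and 11.4% of all genes did.

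Psmd14, the deubiquitinase of the cap lid, had 4.75, 5.48 and 4.47 on the arrays labelled homozygous, 5.39, 5.05 and 6.18 on heterozygous arrays, and 6.65, 6.37 and 6.14 on wild-type arrays. It was detected on 1 of 3 arrays labelled homozygous, and those arrays all lay below wild type. The difference from wild type was -1.49 ± 0.34 (limma, adjusted p = 0.064), and a second probe gave -0.86 ± 0.34. Psmd11, a lid scaffold, had 4.47, 5.39 and 4.28 on the arrays labelled homozygous, 5.68, 4.78 and 5.40 on heterozygous arrays, and 5.82, 5.81 and 5.73 on wild-type arrays. It too was detected on 1 of 3 arrays labelled homozygous, with a difference of -1.07 ± 0.32 (limma, adjusted p = 0.090). Psme4 had 7.43, 7.63 and 7.01 on the arrays labelled homozygous, 7.85, 8.47 and 7.96 on heterozygous arrays, and 8.04, 8.19 and 8.28 on wild-type arrays, a difference of -0.81 ± 0.24 (limma, adjusted p = 0.090).

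Psmb1 went the other way, with 6.99, 8.05 and 6.74 on the arrays labelled homozygous, 7.21, 7.38 and 6.99 on heterozygous arrays, and 6.02, 5.86 and 6.86 on wild-type arrays. Heterozygous arrays were as high as those labelled homozygous, and the difference of 1.01 ± 0.37 did not pass (limma, adjusted p = 0.12) and was -0.25 after median scaling, where the median of all genes was -0.89. Psmd9, detected on 1 of 3 arrays labelled homozygous, differed by -0.56 ± 0.25, and the catalytic genes Psmb5, Psmb6 and Psmb7 by -0.53 ± 0.42, -0.31 ± 0.34 and -0.15 ± 0.29. Of the other activators, Psme3 differed by -0.68 ± 0.33, Psme1 by -0.44 ± 0.25 and Psme2 by 0.05 ± 0.32.

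Without array 2, Psmd14 was at -1.78, Psmd11 at -1.41 and Psme4 at -0.95, and these 3 members passed (limma, adjusted p = 0.00416, 0.00472 and 0.0165), with 3620 of 11507 genes passing. The members' median was then -0.38, against -0.18 over all genes, with 31 of 36 negative, and Psmb1 was at 0.62 (limma, adjusted p = 0.14). With array 2 as the only array of its label, 1 member passed, Psmb1 at 1.80 (limma, adjusted p = 0.0364). The members' medians were lowest on the dimmest array. On the arrays labelled homozygous they were -0.19, 0.17 and -0.66, at mean raw intensities of 102, 137 and 92.1. On heterozygous arrays they were -0.25, -0.25 and 0.04, at 106, 99.3 and 135. On wild-type arrays they were 0.00, 0.01 and -0.02, at 194, 228 and 136. The medians over all genes were -0.118, 0.015 and -0.237 on the arrays labelled homozygous and -0.073, -0.030 and 0.011 on heterozygous arrays. The part of array brightness in these differences was not tested. Of the marrow markers, Vpreb1, a marker of B-cell precursors, was at 4.26, 4.39 and 4.30 on the arrays labelled homozygous, against a wild-type mean of 7.95. The other marrow markers did not share this. S100a8, S100a9 and Ngp were slightly higher on all 3 of these arrays, and Mpo, Elane and Alas2 lay on both sides of the wild-type mean. Heterozygous and wild-type marrow shared 1 BeadChip, and 0 of 36 members passed between them (0% of all genes), 2 with an unadjusted p under 0.05 (9.39% of all genes), with a median of -0.14 and 29 negative. The arrays labelled homozygous against heterozygous gave 0 of 36 (0.669% of all genes), 1 with an unadjusted p under 0.05 (14.9% of all genes), and a median of -0.04. Without array 2 that comparison gave 2 members, with 1614 of 11507 genes passing, and a median of -0.20.

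**Figure D4:**
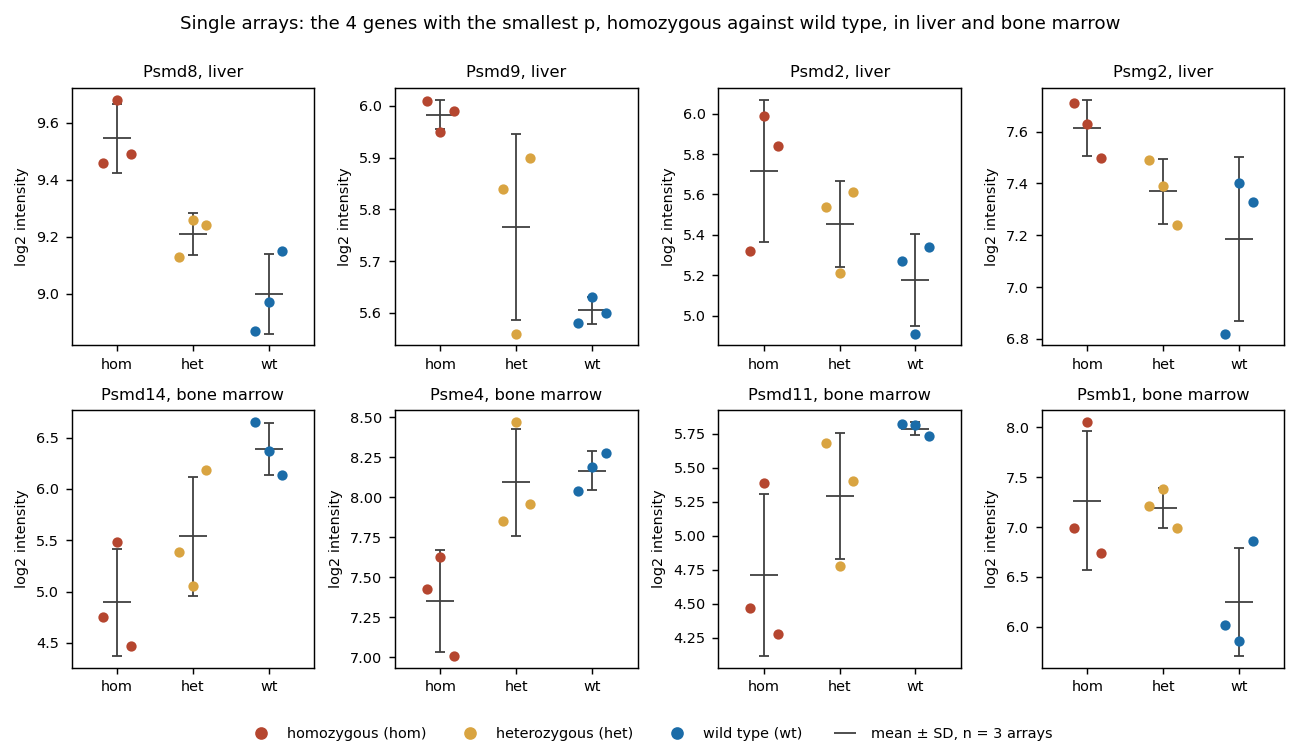
Log2 intensity on each array for the 4 proteasome genes with the smallest p between homozygous and wild type in liver (top) and bone marrow (bottom). Points are arrays, bars are mean ± SD of 3 arrays, and the vertical axes differ. In liver the homozygous arrays of Psmd8, Psmd9 and Psmg2 lie above wild type, and in marrow those of Psmd14, Psme4 and Psmd11 lie below it.

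**Figure D5:**
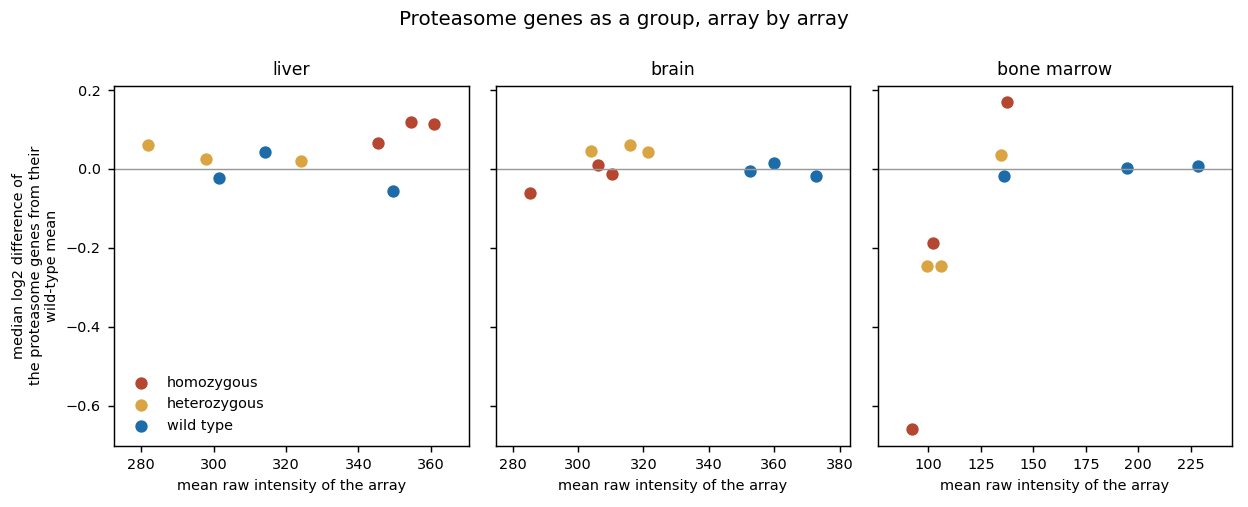
Median log2 difference of the proteasome genes from their wild-type mean on each array, against the mean raw intensity of that array, for 37 genes in liver and 36 in brain and bone marrow. Liver and brain arrays stay between -0.06 and 0.12. The marrow arrays with the lowest intensity lie lowest, down to -0.66, where the median over all genes was -0.237.

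The difference in homozygous effect between tissues was tested over all 27 arrays, on the scale of the joint normalization. The effect in bone marrow was lower than that in liver for 5 of 37 members (15.7% of all 17374 genes passed, 8.58% lower). These were Psmd14 at -2.46 ± 0.56, Psmd11 at -2.24 ± 0.60, Psmd9 at -1.75 ± 0.48, Psmd8 at -1.06 ± 0.33 and Psmg2 at -0.87 ± 0.25 (limma, adjusted p from 0.00669 to 0.0326). The probes of Psmd14, Psmd11 and Psmd9 were detected on 1 of 3 marrow arrays labelled homozygous, so the size of these differences rests partly on signals not above background. Other probes gave -1.62 ± 0.65 for Psmd14, -0.90 ± 0.24 for Psmd11, -1.11 ± 0.47 for Psmd9, and -1.55 ± 0.43 and -1.36 ± 0.54 for Psmg2. Against brain the effect in marrow was lower for 4 members (11.4% of all genes passed, 6.45% lower): Psmd14 at -2.44 ± 0.56, Psmd11 at -2.20 ± 0.60, Psmd9 at -1.58 ± 0.48 and Psme4 at -0.87 ± 0.25 (limma, adjusted p from 0.00895 to 0.0372). Here other probes gave -1.72 ± 0.65 for Psmd14 and -0.77 ± 0.47 for Psmd9, but -0.17 ± 0.24 for Psmd11 and 0.06 ± 0.40 for Psme4, which do not bear out the probes used. With each tissue normalized on its own, 5 and 3 members passed, with Psmd14 at -1.50 and -1.48. These comparisons share the marrow arrays and their doubtful label: without array 2 of that group 12 and 9 members passed, with 6345 and 5624 of 17374 genes passing. Without array 3, the dimmest, Psmd8 and Psmg2 no longer passed against liver (limma, adjusted p = 0.0645 and 0.0662), nor did Psmd11, Psmd9 and Psme4 against brain (0.0616, 0.0894 and 0.0738), and the members' medians were -0.09 and 0.01. Against liver, 3 passed without wild-type liver array 1 or homozygous liver array 2. Against brain, 1 passed without wild-type brain array 1 or 2, homozygous brain array 2 or wild-type marrow array 2, and 2 without homozygous brain array 3. Psmd14 passed in each of these. Psmd8 against liver also lost its call without wild-type liver array 1 or 2, any homozygous liver array, or wild-type marrow array 1 or 2. Psmd9 against brain also lost its call without any single wild-type or homozygous brain array. The same held without wild-type marrow array 2 or 3, or array 1 of those labelled homozygous. Between liver and brain 0 members differed (0.15% of all genes), 1 with an unadjusted p under 0.05 (2.5% of all genes). With 1 homozygous effect for the 3 tissues and BeadChip as a term, 0 of 37 members passed (0% of all genes), 0 had an unadjusted p under 0.05 (2.7% of all genes did), and the median was -0.09 with 31 negative. Homozygous liver and marrow arrays do not inform that effect, because of how the groups are divided over the BeadChips.

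Genes around the proteasome gave no genotype calls either. Of 18 listed regulators and partners 9 were measured in each tissue, and of 17 ubiquitin supply and shuttle genes 8, with 0 past the test between homozygous and wild type in any tissue. Nfe2l1, the transcription factor that raises proteasome genes when the proteasome is impaired, differed by -0.04 ± 0.09 in liver, -0.02 ± 0.09 in brain and -0.07 ± 0.23 in bone marrow. The immunoproteasome genes were not called either: in liver Psmb8 differed by -0.09 ± 0.11, Psmb9 by -0.13 ± 0.21 and Psmb10 by -0.09 ± 0.14, and in marrow Psmb9 differed by -0.81 ± 0.32 (limma, adjusted p = 0.15). Between wild-type tissues, Nfe2l1 was lower in marrow than in brain by -2.50 ± 0.16 and lower in liver than in brain by -1.15 ± 0.16 (limma, adjusted p = 4.95e-12 and 1.70e-06).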

How the data were processed

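Total RNA of 27 samples was hybridized to Illumina BeadChips. The deposited scanner table gives, per the file headers, each probe's mean intensity, bead count, bead standard error and detection p-value, without normalization between arrays. The authors also deposited normalized intensities on a linear scale. The submitters' processing notes name BeadStudio and limma, with settings not given in the sources used here. Signals were background-corrected, quantile-normalized and log2-transformed with limma 3.58.1 (neqc, offset 16) in R 4.3.3, within each tissue for genotype and over all 27 arrays for tissue comparisons and interactions. Probes were kept if detected at p under 0.05 on at least 3 arrays. Those with 1 gene symbol (34885 of 45281) were reduced to the highest-mean probe per gene. The other 10396 had no gene name used, and each that was kept stood alone. The counts and shares of all genes therefore include such unnamed probes. Linear models with empirical Bayes moderation covered all genes, with Benjamini-Hochberg adjustment at 0.05.

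Values are given for the 4 members with the smallest p in each comparison of homozygous with wild type, the 3 highest and 3 lowest of each wild-type tissue comparison, members past the threshold between genotypes, Psmb5 to Psmb7, Psme1 to Psme4, undetected members, Psmb8 to Psmb10 and up to 3 called genes of each other list. Other members named with values were chosen after their values were seen. The members and lists were chosen with earlier results of these data known. Alternatives were the deposited values, no background correction, median scaling, other detection filters, the mean over probes, array weights, a replicate block, BeadChip as a term, joint fits and leaving out each array. Same-numbered arrays deviated together (every correlation over 0.1) in 1 of 12 comparisons checked, homozygous against wild-type liver, and the block left 0 members past the test there. In simulated data, 88 of 100 genes changed by 1 (log2) were called in liver, 94 in brain and 0 in bone marrow, and 11, 31 and 0 of those changed by 0.5. The number of arrays limits precision.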

Additional observations from a re-analysis of the deposited data

Results flagged for a closer look

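The homozygous effect differed between bone marrow and another tissue for several members, by a test of the difference itself over all 27 arrays (limma interaction terms). For bone marrow minus liver, these were Psmd14 at -2.46, Psmd11 at -2.24, Psmd9 at -1.75, Psmd8 at -1.06 and Psmg2 at -0.87 (log2; limma, adjusted p = 0.00669, 0.0177, 0.0196, 0.0326 and 0.0260). For bone marrow minus brain, these were Psmd14 at -2.44, Psmd11 at -2.20, Psmd9 at -1.58 and Psme4 at -0.87 (limma, adjusted p = 0.00895, 0.0229, 0.0372 and 0.0296). Other probes gave -0.17 ± 0.24 for Psmd11 and 0.06 ± 0.40 for Psme4 in marrow minus brain, and the probes of Psmd14, Psmd11 and Psmd9 were detected on 1 of the 3 marrow arrays labelled homozygous. The 5 and 4 of 37 members are not above the shares of all genes that passed in either direction, 15.7% and 11.4%. As lower, 8.58% and 6.45% of all genes passed. Against liver Psmd8 and Psmg2, and against brain Psmd11, Psmd9 and Psme4, lost their calls when certain single arrays were left out. Mysm1 was not lower on 2 of the 3 marrow arrays labelled homozygous, and the remaining array carried liver and some brain transcripts. All 3 arrays were on a BeadChip of their own, so genotype and BeadChip cannot be told apart there.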

How the results depend on the processing

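Of the alternatives for named members, 651 kept direction and side of the threshold, 29 gained a call, 57 lost one and 13 reversed. In homozygous against wild-type liver, 1 member passed with the deposited values, no background correction, median scaling, a stricter filter or array weights. Median scaling gave member medians of 0.209, -0.077 and 0.303 in liver (homozygous against wild type, heterozygous against wild type, homozygous against heterozygous), -0.167 and -0.088 in brain (homozygous and heterozygous against wild type), and -1.705 and -1.584 in marrow, where 1 member passed. It reversed Psmb1 in marrow (-0.25), Psmd10 (-0.11) and Psme1 (-0.98) in marrow against liver, and Psme4 (-0.047) and Psme2 (-0.62) in marrow against brain. The median of all genes was also negative in these comparisons under median scaling, as given above. With BeadChip as a term and 1 effect for all tissues, member medians were -0.091 for homozygous and -0.068 for heterozygous against wild type. For homozygous against heterozygous the median was -0.067. Homozygous liver and marrow arrays do not inform the homozygous effect of that fit. The sign of that effect was opposite to the liver difference for Psmd8 (-0.022), Psmd9 (-0.48, also opposite to brain), Psmd2 (-0.26) and Psmg2 (-0.16). For Psme4 (0.041) it was opposite to the marrow difference. These count as reversals above, but the part of BeadChip in the liver and marrow differences was not tested by them. In marrow, array weights gave 11, 3 and 2 members for homozygous and heterozygous against wild type and homozygous against heterozygous. In 1 fit of all 27 arrays these were 7, 4 and 3. The shares of all genes are not given for the counts under alternative settings in this section. Array 2 alone, added after seeing the data, gave 1 member and medians of 0.17 against wild type and 0.31 against heterozygous. Leaving out 1 array gave 0 to 3 members for homozygous against wild-type marrow and 0 to 2 against heterozygous.

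Between wild-type tissues, median scaling gave 6 and 22 members for liver against brain and marrow against liver, with medians of 0.008 and -1.114, and -1.003 for marrow against brain. Array weights gave 21 and 21, and the 9 wild-type arrays alone gave 20 for marrow against liver. Homozygous and heterozygous arrays each gave 17 there, with medians of -0.17 and -0.07, and medians of 0.18 and 0.22 for marrow against brain. The mean over probes reversed Psmd1 in liver against brain (0.003). Leaving out 1 array gave 8 to 9 members for liver against brain. Without wild-type marrow array 1, Psme4 in marrow against liver was 0.016. For differences in homozygous effect, median scaling, added after seeing the data, gave a median of 0.37 for liver minus brain, 31 members and -1.92 for marrow minus liver, and -1.51 for marrow minus brain. Leaving out 1 array gave 3 to 12 members and medians of -0.50 to -0.09 for marrow minus liver, and 1 to 9 members and -0.38 to 0.01 for marrow minus brain. The replicate block changed no count: 0 members between genotypes, 13, 11 and 23 between tissues, and 5 and 4 for marrow minus liver and brain. The cause of these changes was not tested. The number of arrays, the dim marrow arrays and 7 members with undetected probes limit what could be measured.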
